A study of Mus musculus with 6 samples.

Results

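The genes described here encode the proteins of the mitochondrial ribosome, chosen as the protein-coding genes whose symbol is Mrpl (large subunit) or Mrps (small subunit) followed by a digit. There were 78 such genes among the 52636 genes in the count tables, 49 with an Mrpl and 29 with an Mrps symbol. A further 5 processed pseudogenes with such symbols were left out. Transcripts were counted by RNA sequencing of total RNA from RAW264.7 cells, a macrophage line of BALB/c mice grown in high-glucose medium with serum. The C2S group comprised 3 libraries of cells that had received the extract C2S at a dose of 150 µg/ml and were harvested after 24 h. The PM_control group comprised 3 libraries at a dose of 0 µg/ml. Neither name is explained in the labels, which also do not say whether the 3 libraries of a group came from separate cultures, so the p-values measure the spread between these libraries, which may be technical.

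The mitochondrial ribosome translates the few messenger RNAs of the mitochondrial genome, which encode core subunits of the respiratory chain and the ATP synthase. Its ribosomal RNAs are transcribed in the mitochondrion, whereas all of its proteins are encoded in the nucleus, made in the cytosol and imported. Some of the proteins have a counterpart in the bacterial ribosome, and others are found only in mitochondria.

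Totals were 8594485 to 10491307 counts in the C2S libraries and 9149574 to 10665869 in the PM_control libraries. The members had between 76 and 1957 counts in a library, and all 78 passed the low-count filter. Together they held 0.327% to 0.343% of the counts in C2S libraries and 0.366% to 0.396% in PM_control libraries. The summed level of 8 macrophage markers was 6660 to 6990 TPM (an abundance scaled for transcript length and depth) with C2S and 6420 to 6770 TPM in PM_control. The sum hides single genes. By the edgeR test described below, 5 of the 8 markers were higher (62.5%, against 27.0% of all tested genes). Only Cd14 was lower (12.5%, against 28.4%). Summed B cell markers reached 1.15 to 2.55 TPM with C2S and 0 to 0.38 TPM in PM_control, and the epithelial, fibroblast and T cell sums stayed at or under 0.24 TPM in every library. In bulk RNA of this kind, fewer cells and less RNA per cell cannot be told apart.

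With C2S, 23 of the 78 mitochondrial ribosomal protein genes were lower and 6 were higher, while 49 did not pass the test. The falls were led by Mrpl50, Mrps2, Mrpl44, Mrpl18 and Mrpl36, at 0.407 to 0.571 times the PM_control level. The rises were smaller and were led by Mrpl38, Mrpl10 and Mrpl4, at 1.27 to 1.39 times the PM_control level. Genes were tested with the quasi-likelihood F test of edgeR after TMM scaling, with Benjamini-Hochberg adjustment at 0.05 over all 11561 genes tested. Of those genes 55.4% were called, 27.0% higher and 28.4% lower. Of the members 37.2% were called, 7.69% higher and 29.5% lower. In this fit the share of members that fell was near that of all genes, but this depended on the setting. With library sizes alone in place of TMM, 35 of 78 members were lower, where 34.6% of all tested genes were. With limma on log2(TPM + 1) 28 were lower (26% of all genes), without a low-count filter 29 (17.8%) and with DESeq2 19 (25.5%). In the edgeR fit the members' median log2 fold change was -0.09, with an interquartile range of -0.32 to 0.03, against -0.00 and -0.36 to 0.31 over all tested genes. Of the 78 members, 56 had a negative and 22 a positive fold change. Only 8 called members changed at least 1.5-fold and 1 at least 2-fold, where 27.0% and 14.5% of all tested genes did so.

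The 3 values of one group lay wholly on one side of the other 3 in 39 members, 31 lower and 8 higher with C2S (50% of members, against 61.1% of all tested genes, 31.4% lower and 29.8% higher). That was the case for 28 of the 29 called members, the exception being Mrpl2. Another 11 members had separate groups but did not pass the test. Of the called members, 16 of the falls and 3 of the rises kept their call under every alternative that tested them (18 alternatives were run), and the other 10 lost it under at least 1.

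**Figure D1:**
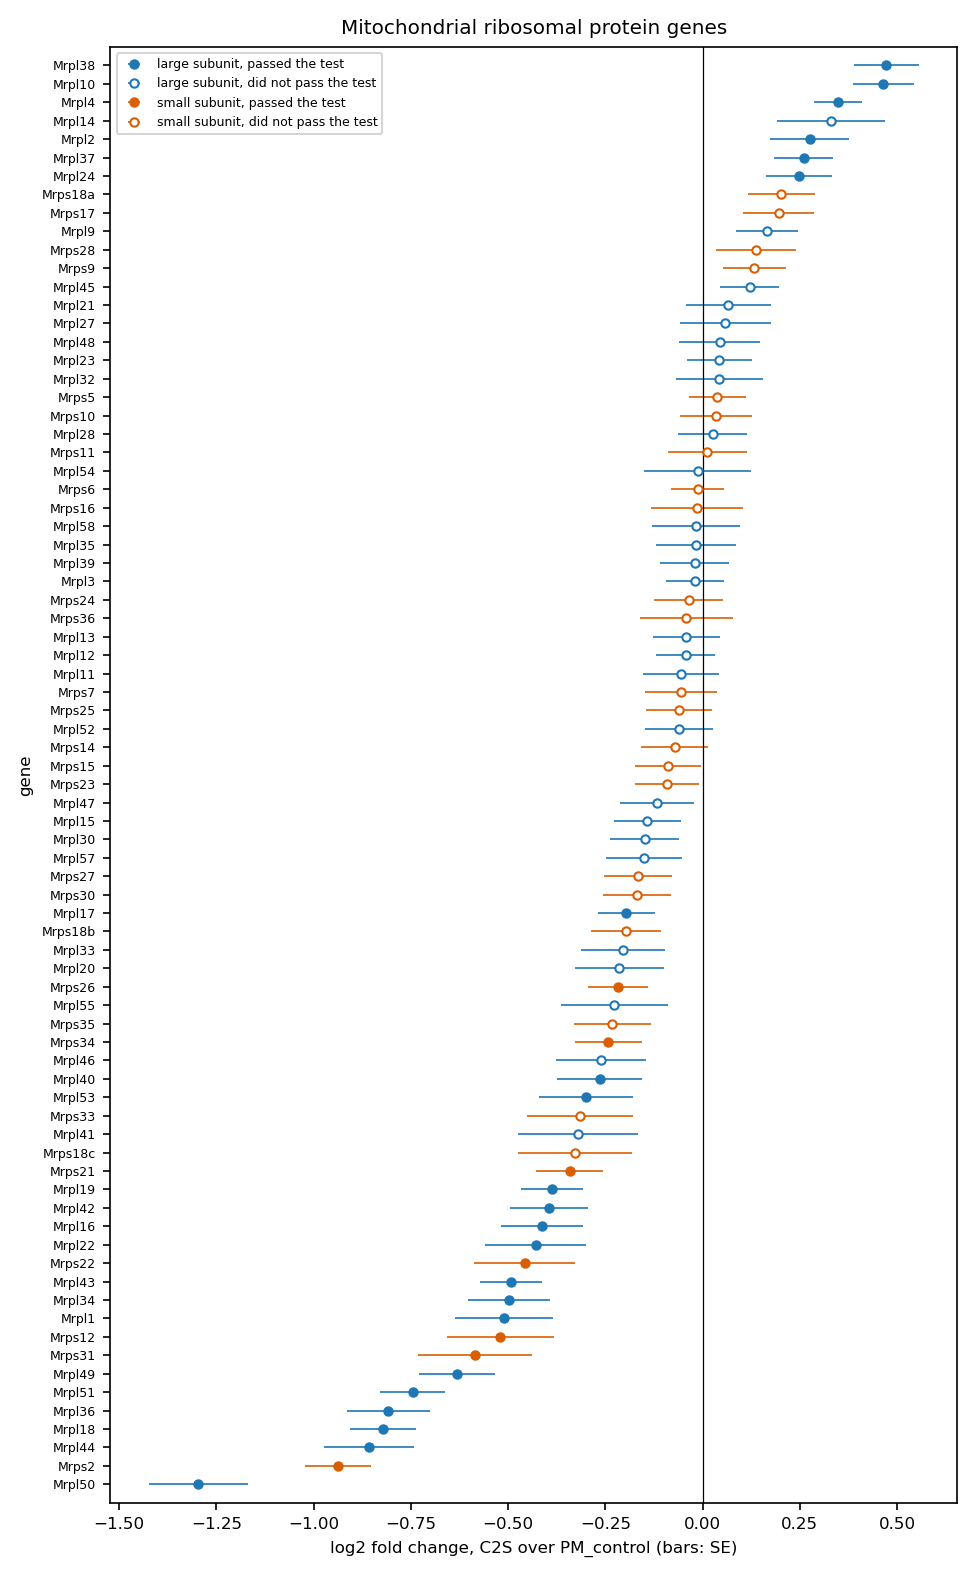
Log2 fold change of each of the 78 mitochondrial ribosomal protein genes (rows), C2S over PM_control, with the SE as a bar. Blue marks Mrpl and orange Mrps genes, and filled points passed the edgeR test. The points run from -1.30 for Mrpl50 to 0.47 for Mrpl38, and no orange point on the right of the zero line is filled.

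The largest fall was in Mrpl50 (ENSMUSG00000044018, chromosome 4, 49512596 to 49521093, minus strand, GRCm38), which encodes a mitochondria-specific protein of the large subunit. Mrpl50 had 12.8, 12.5 and 15.7 CPM (counts scaled for depth with TMM factors, as in all CPM values here) in C2S libraries, against 31.9, 30.6 and 38.2 CPM in PM_control libraries. All C2S values were below every PM_control value, and C2S replicate 3 was the highest of its group. The log2 fold change of Mrpl50 was -1.30 ± 0.13 (SE, n = 3 each), with an adjusted p of 2.21e-07 by edgeR. This was the single member past a 2-fold change.

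Mrpl50 starts head to head with Zfp189, which encodes a zinc finger protein. The bases that lie between the annotated first exons of Mrpl50 and Zfp189 are shown because they are shared by the gene with the largest fall and a neighbour that did not pass the test. They span chr4:49521094-49521175 on the minus strand, 82 bases in RefSeq's GRCm38.p6 sequence, and hold none of the motifs searched.
Mrpl50: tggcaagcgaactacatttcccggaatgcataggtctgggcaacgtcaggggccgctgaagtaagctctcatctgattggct
Zfp189 was itself scarce, at 2.65, 2.16 and 2.83 CPM with C2S and 3.21, 2.33 and 4.72 CPM in PM_control, with an adjusted p of 0.283 by edgeR.

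The next 4 large-subunit genes by size of the fall were Mrpl44, Mrpl18, Mrpl36 and Mrpl51. Mrpl44 (chromosome 1, 79776018 to 79781445, plus strand) encodes a protein with a ribonuclease III fold that is altered in a human infantile cardiomyopathy. Mrpl44 had 17.7, 21.3 and 23.8 CPM with C2S and 35.3, 41.5 and 36.5 CPM in PM_control, with -0.86 ± 0.12 as the log2 fold change (edgeR adjusted p = 8.83e-06). The groups did not overlap. Mrpl18 (chromosome 17, 12911349 to 12916345, minus strand) encodes the counterpart of bacterial L18, which binds 5S ribosomal RNA in bacteria. Mrpl18 had 35.6, 33.4 and 37.8 CPM with C2S, against 59.4, 64.1 and 65.5 CPM in PM_control. All PM_control values of Mrpl18 were above every C2S value, and the log2 fold change was -0.82 ± 0.08 (edgeR adjusted p = 3.98e-07). Mrpl18 shares 10.1% of its exon length with Tcp1, so its reads are uncertain to that extent.

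Mrpl36 (chromosome 13, 73328513 to 73332178, plus strand) encodes the counterpart of bacterial L36, a very small zinc-binding protein. Mrpl36 had 23.3, 21.6 and 25.5 CPM with C2S and 38.1, 38.7 and 46.7 CPM in PM_control, with -0.81 ± 0.11 as the log2 fold change (edgeR adjusted p = 6.78e-06). PM_control replicate 3 was the highest Mrpl36 library, and the group was apart from C2S without it as well. Mrpl51 (chromosome 6, 125191801 to 125196269, plus strand) encodes another mitochondria-specific protein. Mrpl51 had 38.3, 34.9 and 38.0 CPM with C2S and 58.8, 62.2 and 65.8 CPM in PM_control, with -0.75 ± 0.08 as the log2 fold change (edgeR adjusted p = 1.14e-06). The C2S values of Mrpl51 lay close together, far below the lowest PM_control library.

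Mrpl49 (chromosome 19, 6053622 to 6057785, minus strand), also mitochondria-specific, had 32.0, 30.1 and 36.7 CPM with C2S and 46.0, 53.5 and 53.6 CPM in PM_control. Its log2 fold change was -0.63 ± 0.10 (edgeR adjusted p = 3.81e-05), and its groups did not overlap. Mrpl1 (chromosome 5, 96209493 to 96266727, plus strand) encodes the counterpart of bacterial L1, the protein of the mobile stalk near the ribosome's exit site. Mrpl1 had 14.0, 16.6 and 16.2 CPM with C2S and 20.3, 22.8 and 23.6 CPM in PM_control, with -0.51 ± 0.13 as the log2 fold change (edgeR adjusted p = 0.00233). Its groups did not overlap, but with the trend over GC content removed from each library the change of Mrpl1 was -0.29 with an adjusted p of 0.0513.

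The other 9 large-subunit genes called lower fell by 0.20 to 0.50 on the log2 scale, and are listed so that every called member is accounted for. They were Mrpl34, Mrpl43, Mrpl22, Mrpl16, Mrpl42, Mrpl19, Mrpl53, Mrpl40 and Mrpl17. Mrpl43, Mrpl19 and Mrpl53 are uncertain because they share exon length with Twnk (33.4%), Gcfc2 (36%) and Gm42688 (88%), in that order. Mrpl34, the counterpart of bacterial L34, had 23.1, 20.6 and 21.6 CPM with C2S and 32.9, 27.9 and 31.4 CPM in PM_control. Its groups were apart, with -0.50 ± 0.11 as the log2 fold change (edgeR adjusted p = 0.000774). Among the smallest of these falls, Mrpl40 (adjusted p = 0.0498) and Mrpl53 (adjusted p = 0.0435) were close to the threshold of the edgeR test. Without PM_control replicate 3 the adjusted p was 0.195 for Mrpl40 and 0.0569 for Mrpl53. Mrpl40 lost its call without any 1 of 5 libraries (all but PM_control replicate 1), and Mrpl53 without C2S replicate 1 (0.144) or 2 (0.0864) or PM_control replicate 2 (0.169) or 3. Mrpl17 lost its call without C2S replicate 1 (0.102) or 2 (0.0647) or PM_control replicate 1 (0.0841) or 2 (0.0811), and its adjusted p was 0.701 with the GC trend removed. With DESeq2 in place of edgeR the adjusted p was 0.11 for Mrpl40, 0.0931 for Mrpl53 and 0.0617 for Mrpl17. Mrpl40 was called under only 9 of the 19 settings run.

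In the small subunit, 7 of 29 genes were lower (24.1%, against 28.4% of all tested genes) and none was higher (against 27.0%). Mrps2 (chromosome 2, 28468066 to 28471178, plus strand) encodes the counterpart of bacterial S2. Mrps2 had 41.5, 42.4 and 48.2 CPM with C2S, against 83.8, 90.0 and 79.1 CPM in PM_control. The highest C2S library lay far below the lowest PM_control library. The log2 fold change of Mrps2 was -0.94 ± 0.09, with an adjusted p of 9.42e-08 by edgeR, the smallest among the members.

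Mrps31 (chromosome 8, 22411361 to 22429665, plus strand) encodes a mitochondria-specific protein of the small subunit. Mrps31 had 10.9, 9.14 and 12.3 CPM with C2S and 16.1, 15.6 and 17.0 CPM in PM_control, with -0.59 ± 0.15 as the log2 fold change (edgeR adjusted p = 0.00272). Mrps12 (chromosome 7, 28739641 to 28741820, minus strand) encodes the counterpart of bacterial S12, a protein of the decoding centre. Mrps12 had 12.6, 12.0 and 11.4 CPM with C2S and 16.0, 19.2 and 16.6 CPM in PM_control, with -0.52 ± 0.14 as the log2 fold change (edgeR adjusted p = 0.00401). Neither gene's groups overlapped. Mrps21 (chromosome 3, 95862634 to 95871519, minus strand), the counterpart of bacterial S21, had 37.8, 36.5 and 33.6 CPM with C2S and 44.0, 46.4 and 46.6 CPM in PM_control. Its log2 fold change was -0.34 ± 0.09 (edgeR adjusted p = 0.0028), again with no overlap.

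The remaining small-subunit genes called lower were Mrps22 (-0.46 ± 0.13), Mrps34 (-0.24 ± 0.09) and Mrps26 (-0.22 ± 0.08), given as log2 fold changes with their SE. Mrps34 is uncertain, since 63.4% of its exon length lies within Mapk8ip3 and its expected counts were not whole numbers. Mrps34 lost its call without C2S replicate 1 (edgeR adjusted p = 0.11) or PM_control replicate 1 (0.0997), and with DESeq2 (adjusted p = 0.06). Mrps26 lost its call without C2S replicate 2 (edgeR adjusted p = 0.096) or PM_control replicate 3 (0.109).

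All 6 members that were higher with C2S belong to the large subunit. Mrpl38 (chromosome 11, 116131817 to 116138868, minus strand) encodes a mitochondria-specific protein of the central protuberance, where the subunits meet. Mrpl38 had 70.3, 64.8 and 70.0 CPM with C2S and 45.1, 52.3 and 50.7 CPM in PM_control, with 0.47 ± 0.08 as the log2 fold change (edgeR adjusted p = 0.00014). The lowest C2S library was above the highest PM_control library. Mrpl10 (chromosome 11, 97041560 to 97049213, plus strand) encodes the base of the stalk to which Mrpl12 binds and where translation factors are recruited. Mrpl10 had 75.3, 82.6 and 78.9 CPM with C2S and 55.3, 61.1 and 55.1 CPM in PM_control, with 0.47 ± 0.08 as the log2 fold change (edgeR adjusted p = 8.63e-05). Its groups were apart too, though 14.1% of its exon length is shared with Gm11574.

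The bases between the first exons of Mrpl10 and its head-to-head neighbour Lrrc46, which did not pass the low-count filter, are shown as those of the largest rise with a RefSeq entry. They span chr11:97041408-97041559 on the plus strand, 152 bases in GRCm38.p6, and hold none of the motifs searched.
Mrpl10: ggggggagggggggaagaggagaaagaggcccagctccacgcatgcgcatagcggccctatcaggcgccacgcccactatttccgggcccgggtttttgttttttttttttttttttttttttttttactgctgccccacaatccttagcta

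Mrpl4 (chromosome 9, 21002738 to 21008839, plus strand) encodes a protein that lines the exit tunnel for the nascent chain. Mrpl4 had 192, 204 and 210 CPM with C2S and 157, 167 and 151 CPM in PM_control, with 0.35 ± 0.06 as the log2 fold change (edgeR adjusted p = 0.000156). Every C2S value was above every PM_control value. Mrpl37 (chromosome 4, 107055874 to 107066868, minus strand), which is mitochondria-specific, had 85.8, 88.2 and 77.7 CPM with C2S and 69.6, 73.1 and 67.5 CPM in PM_control. Its groups were apart, with 0.26 ± 0.08 as the log2 fold change (edgeR adjusted p = 0.00826), but its adjusted p was 0.0623 with library sizes alone in place of TMM scaling. Mrpl24 (chromosome 3, 87919506 to 87923672, plus strand), another protein near the exit tunnel, had 63.5, 53.5 and 60.2 CPM with C2S and 50.8, 49.5 and 49.0 CPM in PM_control. Mrpl24 changed by 0.25 ± 0.08 on the log2 scale (edgeR adjusted p = 0.0193). It lost its call without C2S replicate 1 (adjusted p = 0.0902), PM_control replicate 2 (0.0569) or PM_control replicate 3 (0.0585), and shares 26.3% of its exon length with Rrnad1.

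Mrpl2 was named after its values were seen, as the called member whose groups overlapped. It encodes the counterpart of bacterial L2, which lies by the peptidyl transferase centre. Mrpl2 had 73.4, 54.8 and 70.8 CPM with C2S and 56.0, 50.9 and 57.9 CPM in PM_control, with 0.28 ± 0.10 as the log2 fold change (edgeR adjusted p = 0.0301). C2S replicate 2 lay within the PM_control range. The call of Mrpl2 was lost without C2S replicate 1 (adjusted p = 0.134), C2S replicate 3 (0.104), PM_control replicate 1 (0.0581) or PM_control replicate 2 (0.124). It was also lost with library sizes alone (0.131), on log2(TPM + 1) with limma (0.216) and with the GC trend removed (0.0861).

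**Figure D2:**
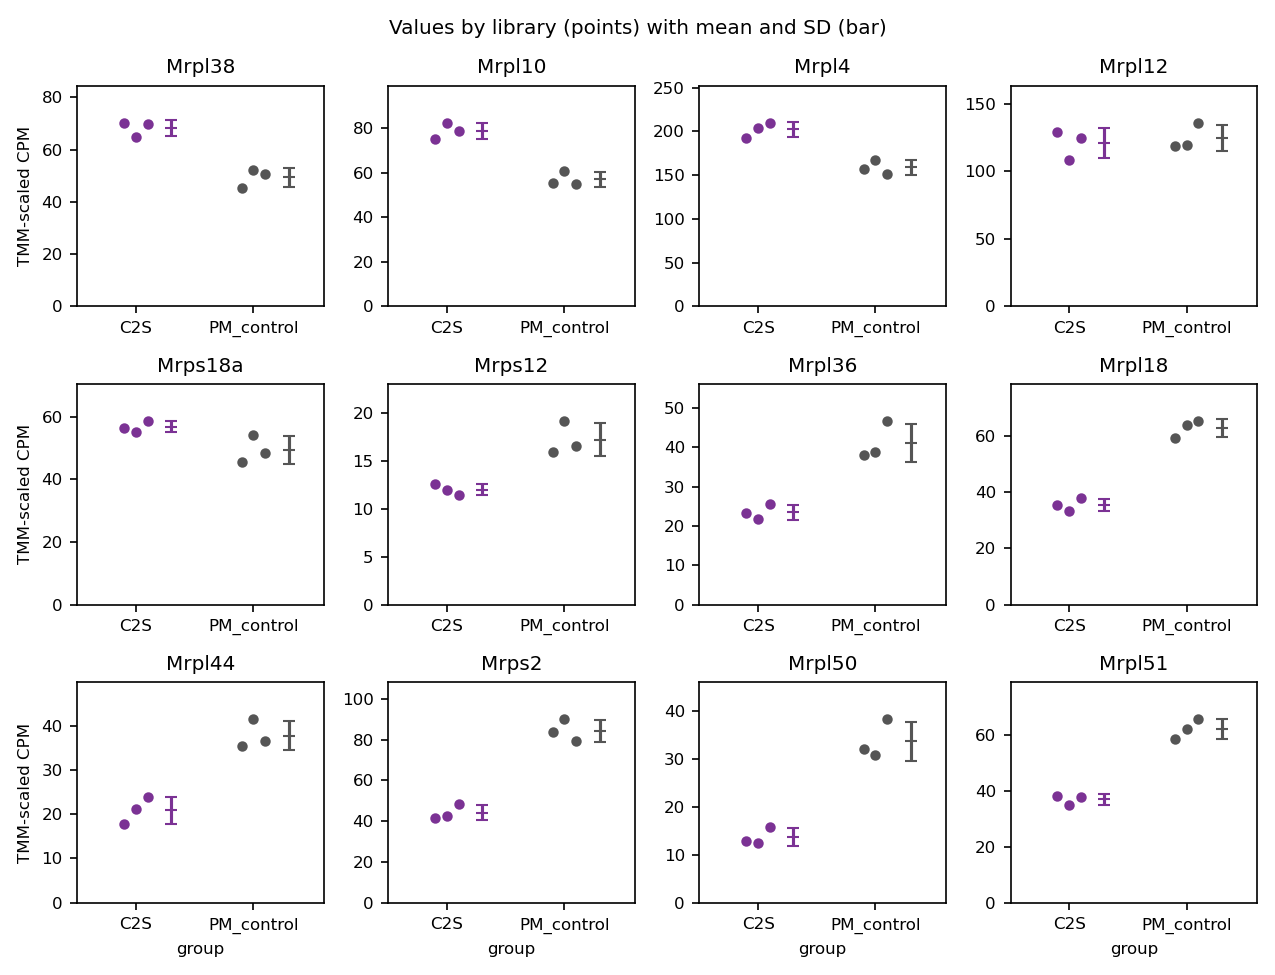
TMM-scaled CPM (vertical axes, from 0) of 12 mitochondrial ribosomal protein genes in the 3 C2S libraries (purple, left) and the 3 PM_control libraries (grey, right). Points are libraries and bars the mean and SD. Mrpl38, Mrpl10 and Mrpl4 sit higher with C2S, Mrpl12 overlaps between the groups, Mrps18a does not overlap but did not pass the test, and Mrps12, Mrpl36, Mrpl18, Mrpl44, Mrps2, Mrpl50 and Mrpl51 sit lower with C2S.

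Members with roles of particular interest were described whatever their p. Mrpl12, the stalk protein that recruits translation factors and that has been reported to bind the mitochondrial RNA polymerase in human cells, had 130, 109 and 125 CPM with C2S and 119, 120 and 136 CPM in PM_control. The groups overlapped, with -0.04 ± 0.08 as the log2 fold change (edgeR adjusted p = 0.648), and 13.1% of its exon length is shared with Gm16755. Mrpl10, which anchors Mrpl12 on the ribosome, was called higher in the same libraries, and the difference between these 2 genes was not tested. Mrpl58, a peptidyl-tRNA hydrolase built into the large subunit, averaged 25.9 ± 2.90 CPM with C2S and 26.3 ± 2.40 CPM in PM_control (SD, n = 3 each; edgeR adjusted p = 0.908). Mrpl45, which lies at the tunnel exit and faces the inner membrane, averaged 68.9 ± 3.08 CPM with C2S and 63.3 ± 0.48 CPM in PM_control. Its groups did not overlap, but it did not pass the test (log2 fold change 0.12 ± 0.07, edgeR adjusted p = 0.183).

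Mrps18a, Mrps18b and Mrps18c are paralogs related to bacterial S18. In the assembled ribosome Mrps18c and Mrps18b sit in the small subunit, and Mrps18a sits in the large subunit despite its symbol. Mrps18a had 56.5, 55.2 and 58.7 CPM with C2S and 45.4, 54.3 and 48.4 CPM in PM_control, with 0.20 ± 0.09 as the log2 fold change (edgeR adjusted p = 0.0546). Mrps18b had 49.7, 63.1 and 55.3 CPM with C2S and 62.1, 66.2 and 63.9 CPM in PM_control, with -0.20 ± 0.09 as the log2 fold change (edgeR adjusted p = 0.074). Mrps18c had 13.8, 13.0 and 13.5 CPM with C2S and 15.4, 14.9 and 20.4 CPM in PM_control, with -0.33 ± 0.15 as the log2 fold change (edgeR adjusted p = 0.0677). The groups did not overlap for Mrps18a and Mrps18c and overlapped for Mrps18b. None of the 3 paralogs passed the test with all 6 libraries. The outcome depended on single libraries: Mrps18a and Mrps18c passed without PM_control replicate 2 (adjusted p = 0.0252 and 0.0407), and Mrps18b without C2S replicate 2 (adjusted p = 0.00961). These fits are given because they passed, and so lend no weight to a change. Over the 19 settings run, Mrps18a was called in 5, Mrps18b in 5 and Mrps18c in 4. Mrps18b and Mrps18c are uncertain, sharing 30.5% of exon length with Gm16279 and 23.2% with Gm43511.

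Mrps30, which also sits in the large subunit, had 45.2, 49.8 and 41.6 CPM with C2S and 49.8, 50.5 and 53.1 CPM in PM_control (log2 fold change -0.17 ± 0.09, edgeR adjusted p = 0.11). Without C2S replicate 2 its adjusted p was 0.0387, but it was called in only 2 of the 19 settings run. Mrps36, now known as a subunit of the 2-oxoglutarate dehydrogenase complex rather than of the ribosome, averaged 68.8 ± 6.31 TPM with C2S and 75.2 ± 5.56 TPM in PM_control (SD, n = 3 each). Its log2 fold change of -0.04 ± 0.12 did not pass the test (edgeR adjusted p = 0.785).

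The 49 members that did not pass the test had log2 fold changes between -0.33 and 0.33. Mrpl14, at the positive end, had 26.9, 18.2 and 25.8 CPM with C2S and 18.6, 19.4 and 18.6 CPM in PM_control (edgeR adjusted p = 0.0522). C2S replicate 2 was the lowest of all 6 Mrpl14 libraries, and the gene shares 11.2% of its exon length with Tmem63b. It was also the lowest C2S library in 39 of the 78 members, against 24 for C2S replicate 1 and 15 for C2S replicate 3. The median member lay 0.04 below its group mean on the log2 scale in C2S replicate 2, and members of higher GC content tended to lie lower in it (Spearman's rho -0.22 over 78 genes of 1 library, a description without a test). In C2S replicate 1 that rho was 0.28.

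Large and small subunit genes were then set against each other. By symbol, 6 of 49 Mrpl genes were higher (12.2%) and 16 lower (32.7%), with a median log2 fold change of -0.12. Of 29 Mrps genes, 0 were higher and 7 lower (24.1%), with a median of -0.09. Over all tested genes 27.0% were higher and 28.4% lower. Moving Mrps18a and Mrps30 to the large subunit and leaving out Mrps36 gave 6 higher and 16 lower of 51, and 0 higher and 7 lower of 26, with the same medians. The difference of the medians, large minus small, was -0.03, but 0.07 on the log2(TPM + 1) scale and 0.07 with the GC trend removed, so its sign depended on the setting. The log2 fold changes ran from -1.30 to 0.47 in the large subunit and from -0.94 to 0.20 in the small.

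Summed over genes, large-subunit transcripts came to 4460, 4340 and 4570 TPM with C2S and to 5070, 5160 and 5290 TPM in PM_control. Small-subunit transcripts came to 2400, 2510 and 2460 TPM with C2S and to 2870, 3000 and 2900 TPM in PM_control. Both sums were lower in every C2S library than in any PM_control library. The ratio of large to small was 1.86, 1.73 and 1.86 with C2S and 1.77, 1.72 and 1.82 in PM_control, and these values overlapped. TPM shares a fixed total among all genes, and the summed TPM of the cytosolic ribosomal proteins was 178000 ± 4040 with C2S and 167000 ± 4510 in PM_control (SD, n = 3 each). Mitochondrial ribosomal protein transcripts equalled 3.87% ± 0.0404 of the cytosolic sum with C2S and 4.86% ± 0.0666 in PM_control. Leaving out genes whose expected counts were not whole numbers kept only 15 of the 76 cytosolic genes, so the cytosolic sum and these percentages are uncertain.

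**Figure D3:**
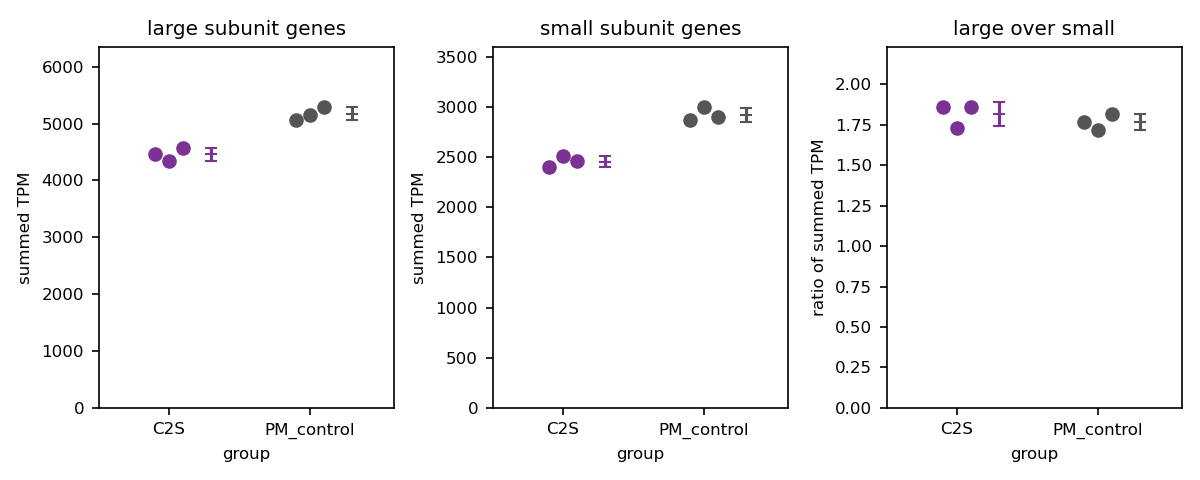
Summed TPM of large-subunit (left) and small-subunit (middle) genes and their ratio (right) in the 3 C2S libraries (purple) and the 3 PM_control libraries (grey). Points are libraries, bars the mean and SD, and the axes start at 0. Both sums are lower with C2S, and the ratios of the groups overlap.

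The members were also split by whether their protein has a bacterial counterpart, a division from textbook knowledge of the ribosome's structure. Mrps18a and Mrps18b were counted as mitochondria-specific and Mrps18c as the counterpart of S18. Of 46 genes with a counterpart, 4 were higher (8.7%) and 11 lower (23.9%), with a median log2 fold change of -0.04. Of 31 mitochondria-specific genes, 2 were higher (6.45%) and 12 lower (38.7%), with a median of -0.22. The shares over all tested genes were 27.0% higher and 28.4% lower. Within the large subunit the medians were -0.05 for 30 genes with a counterpart and -0.17 for 21 mitochondria-specific genes. Within the small subunit they were -0.02 for 16 and -0.22 for 10, and all 10 mitochondria-specific small-subunit genes had a negative fold change, 4 of them past the test. The difference between the classes was not tested.

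**Figure D4:**
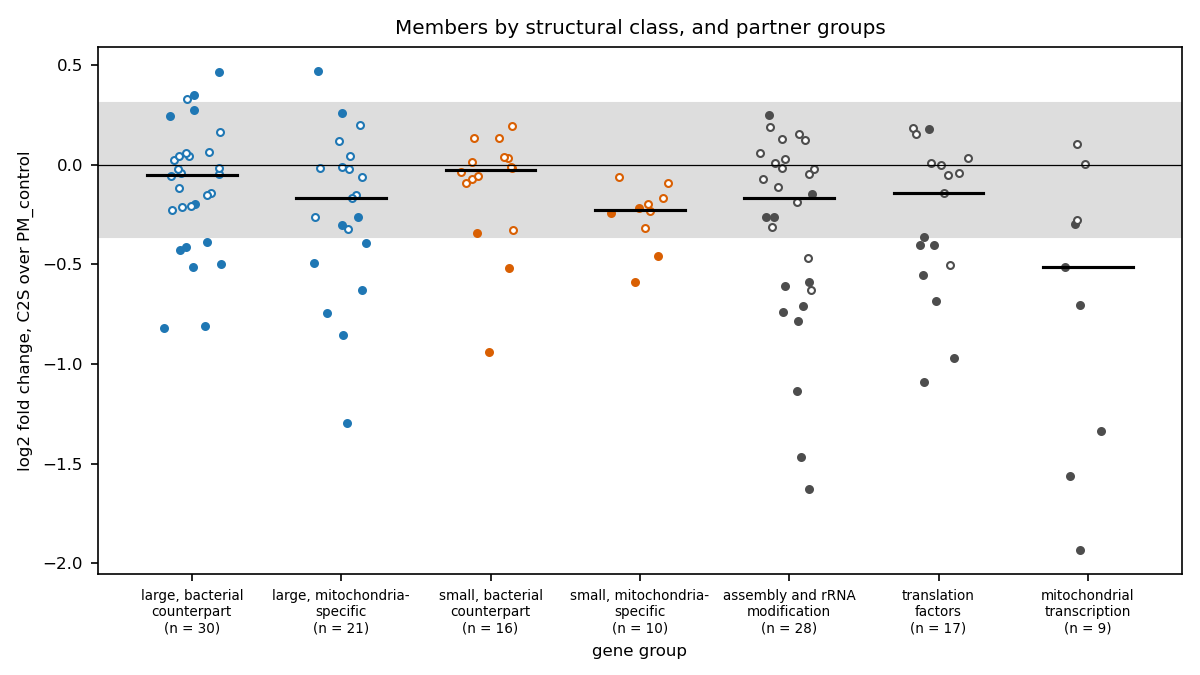
Log2 fold change, C2S over PM_control, of members by subunit in the assembled ribosome and by class, and of 3 groups of genes that act with the ribosome. The group labelled mitochondrial transcription also holds the DNA replication genes Polg, Twnk and Ssbp1. Each point is a gene, filled where it passed the edgeR test, black lines are medians, and the grey band is the interquartile range of all tested genes (-0.36 to 0.31). Most members lie within or near the band, whereas the lowest assembly and transcription genes lie below -1. The transcription genes below -1 are Tefm (-1.56) and the scarce Mterf1a (-1.34) and Mterf1b (-1.94).

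By transcript level per length, the members spanned 10.4 to 347 TPM with C2S and 15.5 to 425 TPM in PM_control, with medians of 72.1 and 78.8 TPM. The 3 highest over all libraries were Mrpl52, Mrps21 and Mrpl4, and the 3 lowest were Mrpl11, Mrps31 and Mrpl1. Mrpl52 had 360, 334 and 346 TPM with C2S and 363, 407 and 418 TPM in PM_control. Mrps21 had 334, 292 and 280 TPM with C2S and 395, 451 and 429 TPM in PM_control, so that it stood below Mrpl52 in each C2S library and above it in each PM_control library. At the other end, Mrpl1 had 9.77, 11.3 and 10.3 TPM with C2S and 15.3, 14.5 and 16.6 TPM in PM_control. Mrpl11, which encodes a protein of the factor-binding region, did not pass the test, with 18.0, 15.8 and 15.7 TPM with C2S and 19.6, 18.3 and 17.4 TPM in PM_control (edgeR adjusted p = 0.65 on counts). The order of the members was much the same in both groups (Spearman's rho 0.95 between group means over 78 genes, a description). For all 77 pairs of neighbours in that order, the 6 values of the one overlapped those of the other. Across libraries of a group, the members' coefficient of variation had a median of 7.99% with C2S and 6.91% in PM_control.

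Members with few exons lay lower than members with many. For the 4 members with at most 2 exons the median was -0.41 on the log2 scale, beside -0.49 over all 546 tested nuclear protein-coding genes with as few exons. The 42 members with 3 to 5 exons had a median of -0.12 (all 2046 such genes, -0.14). Of these members 1 was higher (2.38%, against 20.6% of all such genes) and 15 were lower (35.7%, against 36.8%). The 32 members with 6 or more exons had a median of -0.02 (all 7979 such genes, 0.04). Among them 5 were higher (15.6%, against 29.5%) and 6 lower (18.8%, against 26.1%). In each class the members' median was within 0.1 of that of all genes with the same number of exons. Over the 78 members the log2 fold change went with exon number at a Spearman's rho of 0.35, with GC content at 0.20 and with length at 0, all descriptions across genes that share libraries. Over all tested nuclear protein-coding genes the rho was 0.16 with exon number, 0.23 with GC content and -0.03 with length. With mean TPM it was 0.28 over the members and 0.08 over all such genes. Whether exon number or GC content has a part in the falls was not tested.

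Overlap with other genes left these counts similar. Of the 61 members that share under 10% of their exon length, 4 were higher and 18 lower, with a median of -0.07. The other 17 members are uncertain, as are 8 members whose expected counts were not whole numbers within 0.005 in some library, since these share reads with other loci.

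Of the 78 members, 23 (29.5%) start within 1000 bases of a gene on the opposite strand that runs the other way, or overlap such a gene at their starts by up to 300 bases, against 14.7% of all tested protein-coding genes. Of 22 tested neighbours, 5 were higher and 9 lower with C2S, where 27.0% and 28.4% of all tested genes were. A member and its neighbour were both lower in 1 pair, Mrpl40 with Hira, which encodes a histone chaperone, and both higher in none. In 2 pairs the member was lower and the neighbour higher. Mrpl49 and Fau, which encodes a protein of the cytosolic small subunit, start 59 bases apart. Fau had 745, 640 and 725 CPM with C2S and 541, 569 and 607 CPM in PM_control, with 0.30 ± 0.07 as the log2 fold change (edgeR adjusted p = 0.00139), where Mrpl49 fell by 0.63. Mrpl51 and Ncapd2, which encodes a condensin subunit, start 100 bases apart. Ncapd2 had 370, 408 and 412 CPM with C2S and 317, 317 and 304 CPM in PM_control, with 0.34 ± 0.06 as the log2 fold change (edgeR adjusted p = 0.000134), where Mrpl51 fell by 0.75. In both pairs neither gene's groups overlapped. Mrpl37, which was higher, had a neighbour that was lower, Cyb5rl (log2 fold change -0.38 ± 0.15, edgeR adjusted p = 0.04). The largest change of a neighbour to a higher level was that of Ppp1r10, 45 bases from Mrps18b, at 261, 286 and 295 CPM with C2S and 137, 131 and 131 CPM in PM_control. The largest to a lower level was that of Eme1, the neighbour of Mrpl27, with a log2 fold change of -1.33 ± 0.16. Eme1 had 9.14, 10.2 and 7.81 CPM with C2S and 19.1, 27.3 and 21.9 CPM in PM_control.

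**Figure D5:**
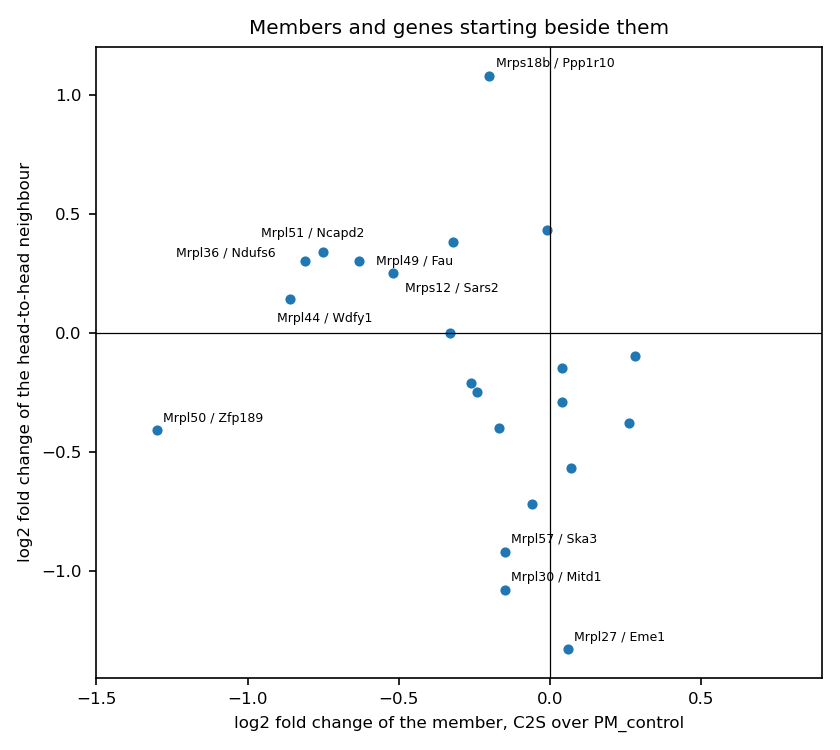
Log2 fold change, C2S over PM_control, of 22 mitochondrial ribosomal protein genes (horizontal axis) and of the tested gene that starts head to head with each (vertical axis). Labels give the member and its neighbour. Of the members called lower, Mrpl36, Mrpl44, Mrpl49, Mrpl51 and Mrps12 have neighbours above zero, of which Fau and Ncapd2 passed the test. Mrpl50, Mrpl40 and Mrps34 have the neighbours Zfp189, Hira (-0.21) and Eme2 (-0.25) below zero, of which Hira passed the test. Of the members not called, Mrpl41 (-0.32), Mrpl54 (-0.01) and Mrps18b (-0.20) lie left of zero with the neighbours Pnpla7 (0.38), Apba3 (0.43) and Ppp1r10 (1.08) called higher. Mrpl30, Mrpl57, Mrps7 and Mrps27, also uncalled and left of zero, have neighbours called lower: Mitd1 (-1.08), Ska3 (-0.92), Gga3 (-0.72) and Ptcd2 (-0.40). Right of zero, the uncalled Mrpl21, Mrpl27 and Mrpl32 have the neighbours Ighmbp2 (-0.57), Eme1 (-1.33) and Psma2 (-0.29) called lower.

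RefSeq promoter windows of 300 bases, from 250 before to 50 after the start, were matched by symbol for 69 members and searched on both strands for 6 short motifs. The motif CCGGAAG of the ETS factor GABPA, a known regulator of nuclear genes for mitochondria, was in 25 of 69 windows (36.2%), against 20.5% of the windows of all tested genes. It was in 11 of 21 windows of members called lower, 14 of 44 of those not called and 0 of 4 of those called higher. AAGATGGC, bound by YY1, was in 12 of 69 windows (17.4%, against 5.37%), and the palindromic NRF1 motif in 3 of 69 (4.35%, against 2.33%). The E-box CACGTG was in 5 of 69 (7.25%, against 10.6%), TGACGTCA of the CREB family in 2 of 69 (2.9%, against 3.5%) and TGATGNAAT of ATF4 in 0 of 69 (against 0.424%). None of these motifs contains another. A match is a description of letters, and its part in the changes was not tested.

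The bases before the RefSeq start of Mrpl34 are shown as those of the member with the largest fall whose exon-free upstream stretch holds the GABPA letters, in capitals. They span chr8:71464726-71464925 on the plus strand, 200 bases in GRCm38.p6. Mrpl51, Mrpl18 and Mrps12, which fell further, hold the letters in their windows but not in such a stretch.
Mrpl34: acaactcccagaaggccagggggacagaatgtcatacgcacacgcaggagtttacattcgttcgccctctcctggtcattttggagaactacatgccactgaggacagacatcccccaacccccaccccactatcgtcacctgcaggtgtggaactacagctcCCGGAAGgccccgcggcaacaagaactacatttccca

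Other components of mitochondrial translation were described from lists that hold no Mrpl or Mrps gene. The counts of each list stand beside 27.0% higher and 28.4% lower over all tested genes. Of 5 ribosomal proteins with other names, 1 was higher and 1 lower. Dap3, a small-subunit protein that binds GTP, averaged 114 ± 4.48 CPM with C2S and 96.0 ± 5.14 CPM in PM_control, with 0.24 ± 0.07 as the log2 fold change (edgeR adjusted p = 0.00552). With library sizes alone the adjusted p of Dap3 was 0.057, and none of the 5 was higher and 3 were lower. Gadd45gip1, a large-subunit protein, had 40.4, 43.5 and 50.8 CPM with C2S and 66.1, 65.0 and 62.9 CPM in PM_control, with -0.53 ± 0.09 as the log2 fold change (edgeR adjusted p = 0.000101).

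Of 28 genes for ribosome assembly and ribosomal RNA modification, 1 was higher and 11 lower, with a median log2 fold change of -0.17. The lowest was Ddx28, an RNA helicase needed for the large subunit, with 10.6, 15.1 and 9.29 CPM with C2S and 33.9, 38.7 and 35.1 CPM in PM_control (log2 fold change -1.63 ± 0.14, edgeR adjusted p = 6.8e-08). Trub2, a pseudouridine synthase, fell by 1.14 ± 0.10 on the log2 scale, with 19.7, 18.8 and 21.7 CPM with C2S and 45.2, 42.8 and 44.6 CPM in PM_control (edgeR adjusted p = 3.39e-08). Both changes were larger than that of any member other than Mrpl50 (-1.30), and the change of Ddx28 was larger than that of Mrpl50 as well. Mpv17l2, called higher at 0.25 ± 0.10, was close to the threshold (edgeR adjusted p = 0.0488) and lost its call when any of 4 single libraries was left out.

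Of 17 translation factors and their partners, 1 was higher and 7 lower, with a median of -0.14. Mtif3, an initiation factor, had 6.29, 9.26 and 11.3 CPM with C2S and 17.8, 21.1 and 17.8 CPM in PM_control (log2 fold change -1.09 ± 0.18, edgeR adjusted p = 7.16e-05). Taco1, a translational activator of the cytochrome oxidase subunit COX1, fell by 0.68 ± 0.14 (edgeR adjusted p = 0.000529). Gfm1, an elongation factor, averaged 184 ± 3.10 CPM with C2S and 162 ± 5.54 CPM in PM_control (log2 fold change 0.18 ± 0.06, edgeR adjusted p = 0.0142), and its adjusted p was 0.0633 without PM_control replicate 3. Of 17 mitochondrial aminoacyl-tRNA synthetases, 3 were higher and 5 lower (1 and 8 with library sizes alone, 1 and 4 without PM_control replicate 3). Among those called were Fars2 at 0.74 ± 0.10 (edgeR adjusted p = 1.24e-05) and Mars2 at -1.37 ± 0.15 (edgeR adjusted p = 9.93e-07).

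Of 9 tested genes for transcription or replication of mitochondrial DNA, 6 were lower and none higher, with a median of -0.51. With the GC trend removed 5 were lower, with a median of -0.27, and without C2S replicate 1, 4 were lower. Without genes whose expected counts were not whole numbers, 6 were tested and 4 were lower, with a median of -0.40. The falls include the scarce Mterf1a and Mterf1b. Mterf1b had 0.295, 0 and 0.566 CPM with C2S, near a floor of 3 counts, and 1.10, 1.31 and 1.05 CPM in PM_control. Mterf1a had 1.87, 1.92 and 0.566 CPM with C2S and 4.68, 2.93 and 3.46 CPM in PM_control. The replication genes among the 9 were Polg (log2 fold change 0.00), Twnk (0.10) and Ssbp1 (-0.51), of which only Ssbp1 was called. Polrmt, the mitochondrial RNA polymerase, had 41.7, 39.4 and 42.8 CPM with C2S and 69.9, 66.6 and 65.1 CPM in PM_control (log2 fold change -0.70 ± 0.08, edgeR adjusted p = 1.25e-06). Tefm, the elongation factor of that polymerase, fell by 1.56 ± 0.20 (edgeR adjusted p = 5.97e-06). Among 9 tested nuclear regulators of mitochondrial genes, 1 was higher and 4 lower, but 8 lower with library sizes alone. Gabpb1, a partner of the ETS factor GABPA, averaged 38.3 ± 1.06 CPM with C2S and 27.8 ± 1.06 CPM in PM_control (log2 fold change 0.46 ± 0.09, edgeR adjusted p = 0.000339). Myc, a transcription factor of growth genes, had 0.688, 1.08 and 1.59 CPM with C2S and 5.51, 7.18 and 4.93 CPM in PM_control (edgeR adjusted p = 1.11e-05). Pprc1, a coactivator, fell by 0.41 ± 0.07 (edgeR adjusted p = 9.94e-05).

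The RNAs that the members bind were read in the same libraries. The small-subunit RNA mt-Rnr1 had 352, 368 and 303 CPM with C2S and 149, 106 and 112 CPM in PM_control, and the large-subunit RNA mt-Rnr2 had 95.5, 78.6 and 56.2 CPM with C2S and 171, 116 and 102 CPM in PM_control. The groups did not overlap for either RNA, and the RNAs differed in direction. Both lay far below the mitochondrial messenger mt-Co1, which averaged 5306 CPM with C2S and 5219 CPM in PM_control. Whether removal or selection of RNA in library preparation shaped the values of mt-Rnr1 and mt-Rnr2 was not tested. With the GC trend removed, mt-Rnr2 changed by -0.34 with an adjusted p of 0.126. Of the mitochondrial messengers that the ribosome translates, 11 of 12 tested were lower and none higher, with a median log2 fold change of -1.05. With the GC trend removed, 9 were lower and 1 higher, with a median of -0.59. Leaving out messengers whose expected counts were not whole numbers kept 5 of the 12, and all 5 were lower. The cytosolic ribosomal proteins stood the other way, with 49 of 76 higher, none lower and a median of 0.20. Leaving out genes whose expected counts were not whole numbers kept only 15 of the 76. Of these 15, 11 were higher and none lower, and the other cytosolic genes are uncertain because they share reads with other loci. Over the 76 genes, 31 were higher without C2S replicate 3. With library sizes alone 23 were higher and none lower, with a median of 0.11, and on log2(TPM + 1) 7 were higher and none lower, with a median of 0.10. Nuclear genes of the respiratory chain had 18 of 76 higher and 9 lower, with a median of 0.04, but 10 higher and 20 lower with library sizes alone, with a median of -0.05, and 4 higher and 14 lower on log2(TPM + 1), with a median of -0.07. Without PM_control replicate 1 or 2, 11 were higher, and without PM_control replicate 3, 3 were lower.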

How the data were processed

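Per the series design text, the authors trimmed reads with fastp, aligned them to mm10 with STAR and counted them with RSEM. The authors deposited expected counts, RSEM's estimated reads per gene with shared reads divided among loci, and TPM, scaled for length and depth, per the file headers. Tool versions, the annotation and the strand setting were not given in the sources used here. Symbols, coordinates and exons came from GENCODE M21 (GRCm38) for 52489 of 52636 genes. A gene was given as uncertain where it shared at least 10% of its exon length, on either strand, with another gene.

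Expected counts were rounded and filtered with filterByExpr (minimum count 10, total 15), leaving 11561 genes and 99.85% of counts. edgeR 4.0.16 (R 4.3.3) fitted the group as the only term, with TMM scaling and a threshold of 0.05, and the common biological coefficient of variation was 7.52%. A floor of 3 counts was 0.286 to 0.349 CPM in C2S and 0.281 to 0.328 CPM in PM_control, and it covers counting error only. SEs were derived as the absolute log2 fold change over the square root of F. Libraries of a group differed beyond sampling noise (chi-square over degrees of freedom 4.3 to 6.46), so each counted once.

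The members, the lists and the tests were chosen with earlier results of these data known. Named members were the 8 largest changes per direction among called members with separate groups, the 2 smallest adjusted p per direction, the 3 highest and 3 lowest TPM, and 10 fixed genes; others named are listed as called members, as overlapping, or for their spread. From other lists, up to 2 called genes per direction were eligible, and Mterf1a and Mterf1b are named for their low counts. The steps were tested on simulated data. Alternatives used DESeq2 1.42.0, limma 3.58.1, other scalings and filters, a replicate block, trends over GC content or length removed, and each library left out.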

Additional observations from a re-analysis of the deposited data

How the results depend on the processing

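The median log2 fold change of the members was negative under all 18 alternatives, from -0.20 to -0.07, and no named gene changed direction with a call. Against 6 higher and 23 lower with a median of -0.09, library sizes alone gave 3 higher, 35 lower and a median of -0.18, and limma on log2(TPM + 1) gave 3 higher, 28 lower and a median of -0.20. Under both of these the median of all tested genes was -0.09, against -0.00, and without a low-count filter it was 0.10. The higher share of all calls was 38.3% and 35.9% under these scalings, against 48.8%, with 1717 genes higher on log2(TPM + 1) against 3123. Of all tested genes 34.6% were lower with library sizes alone and 26% on log2(TPM + 1), against 28.4%. Without a low-count filter 29 members were lower, where 17.8% of all tested genes were. Removing the length trend gave 10 members higher. The large minus small difference of medians, -0.03, was 0.07 on log2(TPM + 1) and 0.07 with the GC trend removed. Without single libraries, 4 to 8 members were higher and 19 to 24 lower, the median ran from -0.14 (without PM_control replicate 1) to -0.08 and the large minus small difference from -0.04 to 0. Mrpl37, Mrpl24 and Mrpl2 lost their calls with library sizes alone and on log2(TPM + 1), and 29 members were called under no setting run. Deviations from the group mean over genes correlated at -0.0112, 0.0686 and 0.0344 between libraries of the same replicate number. Between libraries of unlike numbers they correlated at -0.107 to 0.0819. With so few libraries this cannot show whether they were paired, and the labels do not say. With the replicate number as a block 6 members were higher and 28 lower, where 28.5% of all tested genes were lower. Depth limits members near 76 counts to wider errors, and 3 libraries per group limit all of them.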
